A study of Mus musculus with 6 samples.

Results

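The genes described here encode the receptors and ligand-processing enzymes through which vasoactive peptides and thrombin act on hepatic stellate cells, which wrap the liver's sinusoids, store vitamin A and can contract. These members were chosen by symbol, as Edn1, Ece1, Ednra, Ednrb, Ace, Agtr1a, Npr2, Npr3 and F2r, and all 9 were found among the 24940 rows of the deposited count table, of which 13357 were abundant enough to be tested. Libraries of polyadenylated RNA came from primary stellate cells of wild-type female C57BL/6JBomTac mice, in 2 groups of 3 libraries. The forskolin group (labelled Fsk) received 5 µM forskolin 2 days after isolation. The vehicle group (labelled Ctrl) received an equal volume of dimethyl sulfoxide. In both groups the medium was replaced after 3 h and RNA was taken 21 h later, 24 h after the start. Forskolin switches on adenylyl cyclase directly, so that cells make more cyclic AMP without a receptor signal. The labels give no age, and they do not say whether replicates A, B and C were separate animals or cultures, so p-values rest on a spread among 3 libraries a group that may be technical only.

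Endothelin-1 is made as a precursor and cut to its active form by endothelin-converting enzymes. Its receptor ETA, and ETB on contractile cells, couple to Gq and G12 proteins, of which Gq raises calcium. This signalling contracts stellate cells and vascular smooth muscle. Angiotensin II, released by angiotensin-converting enzyme, acts likewise through the AT1 receptor, and thrombin through the protease-activated receptor PAR1. Natriuretic peptides act in the opposite direction, by raising cyclic GMP through receptors that are themselves guanylyl cyclases, while the clearance receptor removes these peptides.

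Total counts per library were 10890193 to 12954310 with forskolin and 13001358 to 15090262.5 with vehicle. Log2 CPM, computed on scaled library sizes, gave a Pearson's r across tested genes of 0.990 to 0.995 for libraries of the same group, against 0.965 to 0.969 for libraries of different groups, where genes are not independent replicates. All 15 stellate cell markers listed were abundant enough to be tested, with summed levels of 5343 to 5528 CPM in forskolin libraries and 5478 to 5775 CPM in vehicle libraries. Col1a1 (1285 CPM with forskolin and 1540 CPM with vehicle) and Reln (927 CPM with forskolin and 831 CPM with vehicle) were its largest parts. The sum does not show the single markers, of which 7 were higher and 6 lower, against 24.8% and 25.1% of all tested genes. Hgf was higher (log2 fold change 1.02), while Des (-0.83) and Col1a2 (-0.68) were lower. Among markers of other cells, 12 hepatocyte markers summed to 5.01 to 5.51 CPM with forskolin and 4.87 to 5.67 CPM with vehicle, with Serpina1a, Fgb and Cyp3a11 at 0. The 13 macrophage markers summed to 38.0 to 39.5 CPM with forskolin and 34.96 to 36.98 CPM with vehicle, with Marco at 0. Of 3 tested, 2 were higher and 1 lower, against 24.8% and 25.1% of all tested genes. Csf1r (18.3 CPM with forskolin and 13.2 CPM with vehicle) and Cd68 (15.8 CPM with forskolin and 11.2 CPM with vehicle) were higher. Lyz2 was lower, at 4.23 CPM with forskolin and 10.8 CPM with vehicle. The 12 markers of portal fibroblasts and mesothelium summed to 544 to 571 CPM with forskolin and 657 to 669.6 CPM with vehicle, with Gpm6a at 0. Most of that sum was Fbln2 (493 CPM with forskolin and 581 CPM with vehicle). Of 7 tested markers 2 were lower, Fbln2 and Krt19, and 2 higher, against 25.1% and 24.8% of all tested genes. The higher ones were Thy1, at 4.93 CPM with forskolin and 0.650 CPM with vehicle, and Cd34, at 19.6 CPM with forskolin and 3.86 CPM with vehicle (edgeR adjusted p = 6.11e-09 for Cd34). Thy1 had 27 counts over the vehicle libraries and was abundant enough to be tested only through the forskolin libraries, where it was higher. It therefore had to differ, and nothing is read from its test. The part of such cells in the results was not tested. In bulk RNA, fewer cells of a type and less RNA per cell cannot be told apart.

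The promoters of 4 genes are shown because they belong to members that differed at least 1.5-fold between groups. They are RefSeq promoter windows on GRCm38.p6 (mm10), each 300 bases long, running 5′ to 3′ on the gene's strand from 250 bases before an annotated transcription start. Agtr1a, which also passed that fold, had no entry. Capitals mark TGACG, the core of the cyclic AMP response element, read on either strand. The windows lie at chr14:103843652-103843951 (minus strand) for Ednrb, chr8:77724403-77724702 (minus) for Ednra, chr13:42301226-42301525 (plus) for Edn1 and chr15:11907322-11907621 (minus) for Npr3.
Ednrb: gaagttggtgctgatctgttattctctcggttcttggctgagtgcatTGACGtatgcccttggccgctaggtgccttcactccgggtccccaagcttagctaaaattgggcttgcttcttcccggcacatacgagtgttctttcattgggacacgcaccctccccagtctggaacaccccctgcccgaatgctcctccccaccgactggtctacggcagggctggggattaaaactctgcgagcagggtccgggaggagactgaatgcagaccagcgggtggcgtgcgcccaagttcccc
Ednra: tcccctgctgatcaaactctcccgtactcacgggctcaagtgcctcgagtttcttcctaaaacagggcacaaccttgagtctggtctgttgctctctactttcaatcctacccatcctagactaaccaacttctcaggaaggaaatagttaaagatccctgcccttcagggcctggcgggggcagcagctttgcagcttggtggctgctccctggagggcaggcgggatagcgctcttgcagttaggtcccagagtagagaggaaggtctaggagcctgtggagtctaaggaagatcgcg
Edn1: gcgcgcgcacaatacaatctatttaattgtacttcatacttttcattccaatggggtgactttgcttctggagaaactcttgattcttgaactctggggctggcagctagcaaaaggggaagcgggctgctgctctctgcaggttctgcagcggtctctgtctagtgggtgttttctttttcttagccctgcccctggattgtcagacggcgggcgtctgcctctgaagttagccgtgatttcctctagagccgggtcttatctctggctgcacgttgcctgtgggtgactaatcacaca
Npr3: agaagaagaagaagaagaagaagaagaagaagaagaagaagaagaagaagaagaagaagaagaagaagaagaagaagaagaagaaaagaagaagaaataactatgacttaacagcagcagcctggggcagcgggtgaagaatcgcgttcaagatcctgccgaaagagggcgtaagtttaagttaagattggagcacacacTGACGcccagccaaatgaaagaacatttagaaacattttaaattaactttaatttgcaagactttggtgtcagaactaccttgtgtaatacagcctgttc

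The full element TGACGTCA was not found on either strand in any window of the 8 members with an entry, and stood in 1.79% of all 32851 windows. The core TGACG stood in windows of 2 of these 8 genes, against 23.0% of all 27025 genes (20.8% of windows), namely Ednrb, 203 bases before the start, and Npr3, 50 bases before it. Every full element also holds the core. The Npr3 window belongs to a start 1697 bases upstream of the transcript that was counted, while the windows of Ednrb, Ednra and Edn1 share the start of theirs. Ednrb was higher and Npr3 lower with forskolin, so the 2 windows that hold the core belong to genes that differed in opposite directions. A match describes letters and not a binding site, and no match says only that the letters are not in these 300 bases.

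Of the 9 genes, 8 were tested, each with at least 117.5 counts in every library, and all 8 differed between forskolin and vehicle (edgeR quasi-likelihood test, adjusted p under 0.05). Of all 13357 genes tested, 49.9% passed the same test, so passing it is common in these data. Ednrb, Agtr1a, Ednra and Npr2 were higher with forskolin (4 members, against 24.8% of all tested genes), and Npr3, Edn1, Ece1 and F2r were lower (4 members, against 25.1%). The near-even split over all genes, 3319 higher and 3349 lower, moved to 3988 and 2874 with library size alone and to 3764 and 2997 with upper-quartile scaling, under both of which 4 members were higher and 4 lower. At least 1.5-fold differences were found for 5 members, namely Ednrb, Agtr1a, Ednra, Npr3 and Edn1, against 15.4% of tested genes. For each of the 8 tested members the forskolin and vehicle libraries did not overlap in CPM, which held for 57.2% of all tested genes. The median absolute log2 fold change was 0.84 over the 8 members and 0.22 over all tested genes. The members were chosen with earlier results of these data known, so these shares describe them and do not set them apart.

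**Figure D1:**
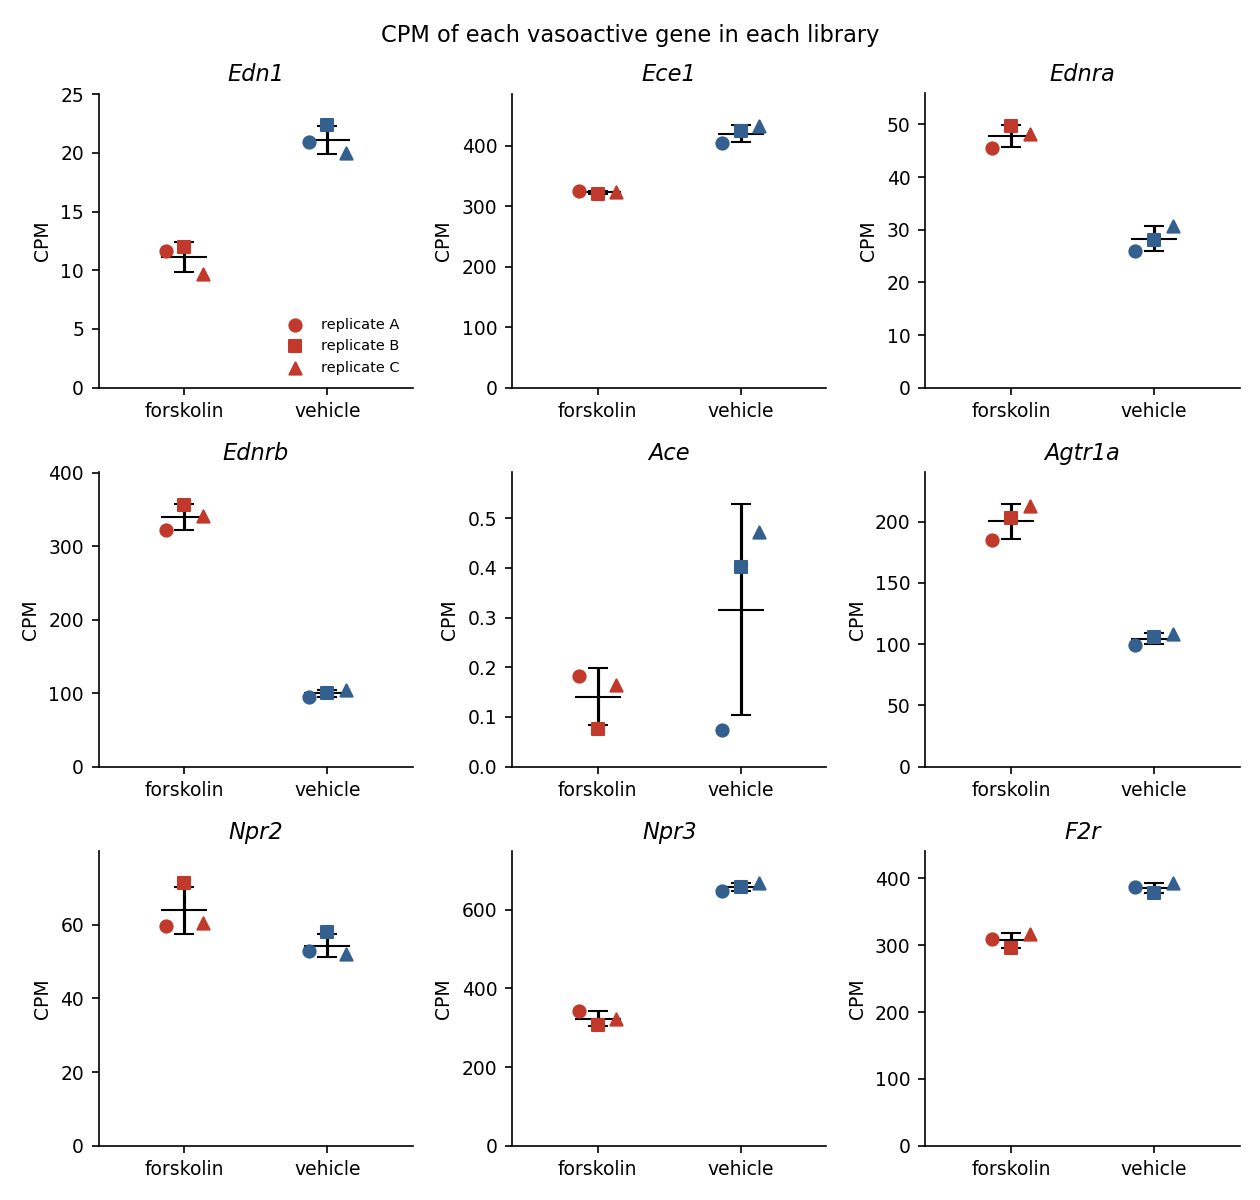
Level of each of the 9 genes (vertical axes, CPM, starting at 0) in the 3 forskolin and 3 vehicle libraries. Points are libraries, their shapes mark the replicate letter, and black bars give the mean ± SD. The groups are apart in every panel but that of Ace.

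The endothelin receptor genes were both higher with forskolin, while the ligand and its converting enzyme were lower. Edn1, the gene of the ligand endothelin-1 (mm10 chromosome 13, 42301476 to 42307990, plus strand, 5 exons), had 11.7, 12.01 and 9.70 CPM with forskolin and 20.9, 22.4 and 20.0 CPM with vehicle. The highest forskolin library was thus below the lowest vehicle library. The log2 fold change was -0.92 (SE 0.110, edgeR adjusted p = 1.43e-06), a level 1.90-fold lower with forskolin, and 31.4% of tested genes lay below Edn1 per kb of exon with forskolin, against 45.2% with vehicle. Edn1 rested on 117.5 to 159 counts per library with forskolin and 253.5 to 333.5 with vehicle, the fewest of the tested members, and its forskolin libraries had the largest coefficient of variation among them, 11.2%. Of its counted exons, 35 bases also lie in an antisense gene, Gm47118, and the sources do not state that strand was kept.

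Endothelial cells are the main source of endothelin-1 in most tissues. Of 17 endothelial markers, 9 were tested, of which 1 rose and 4 fell, against 24.8% and 25.1% of all tested genes. The list summed to 718 to 779 CPM with forskolin and 798 to 852 CPM with vehicle. Most of that sum was Eng, with 699 CPM with forskolin and 750 CPM with vehicle. The defining markers Pecam1 and Cdh5 were at 0.397 and 0.420 CPM with forskolin, against 0.379 and 0.375 CPM with vehicle. Each had 14.5 to 16 counts over the libraries of a group, and neither was tested. Emcn and Robo4 were at 0. Flt1, the largest of the 4 falls, was at 8.54 CPM with forskolin and 27.9 CPM with vehicle. The other falls were Kdr, Lyve1 and Tek, at 1.08, 3.28 and 1.49 CPM with forskolin, against 3.21, 5.10 and 2.48 CPM with vehicle. The marker that rose was Stab2, at 2.50 CPM with forskolin and 0.978 CPM with vehicle. Stab2 had 40 counts over the vehicle libraries, and Kdr had 40.5 over the forskolin libraries. Both lay near the filter on low counts in the group where they were lower, so nothing is read from their tests. Stab1, Tie1, Egfl7 and Eng did not pass. The part of endothelial RNA in the Edn1 difference was not tested.

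Ece1, which encodes the membrane protease that releases endothelin-1 from its precursor (chromosome 4, 137862237 to 137965229, plus strand, 20 exons), was the more abundant of the pair per kb of exon. It had 325, 320 and 324 CPM with forskolin and 405, 424 and 432 CPM with vehicle. The forskolin libraries lay within a narrow band (coefficient of variation 0.718%), all below the vehicle libraries. Ece1 fell by 0.38 on the log2 scale (SE 0.0404, adjusted p = 3.34e-07), a level 1.30-fold lower. Per kb of exon it stayed among the abundant transcripts, with 89.95% of tested genes below it in forskolin libraries and 92.9% in vehicle libraries.

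Ednrb, the gene of the ETB receptor (chromosome 14, 103814615 to 103843701, minus strand, 7 exons), showed the widest difference of the 8 tested members. It had 321, 356 and 341 CPM in the forskolin libraries and 94.8, 101 and 104 CPM in the vehicle libraries, so every forskolin library was more than 3 times the level of any vehicle library. The log2 fold change was 1.77 (SE 0.0495, adjusted p = 7.92e-15), a 3.40-fold higher level, which ranked 122 by size among the increases of all tested genes. Per kb of exon, 92.9% of tested genes had a lower level than Ednrb with forskolin, against 69.0% with vehicle.

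Ednra, the gene of the ETA receptor (chromosome 8, 77663029 to 77724452, minus strand, 8 exons), had 45.5, 49.6 and 48.2 CPM with forskolin and 25.98, 28.1 and 30.7 CPM with vehicle. It was higher in each forskolin library than in any vehicle library, with a log2 fold change of 0.76 (SE 0.0753, adjusted p = 1.39e-07) or 1.69-fold. Per kb of exon Ednra moved to above 52.0% of tested genes with forskolin, against 39.8% with vehicle. An exon of the non-coding gene 4933431K23Rik on the opposite strand overlaps 91 bases of its counted exons.

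Because both receptors bind endothelin-1, their ratio was compared within libraries, where scaling cancels out. Ednrb counts per kb of exon were 6.43, 6.53 and 6.44 times those of Ednra in forskolin libraries A, B and C, and 3.32, 3.26 and 3.08 times in the vehicle libraries. The mean log2 ratio was 2.69 ± 0.0125 with forskolin and 1.69 ± 0.0564 with vehicle (SD, n = 3 each), a difference of 1.01. An exact two-sided permutation test gave p = 0.1, the smallest that 3 against 3 libraries allow. The ratio moved toward ETB in all 3 forskolin libraries although both genes were higher there.

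**Figure D2:**
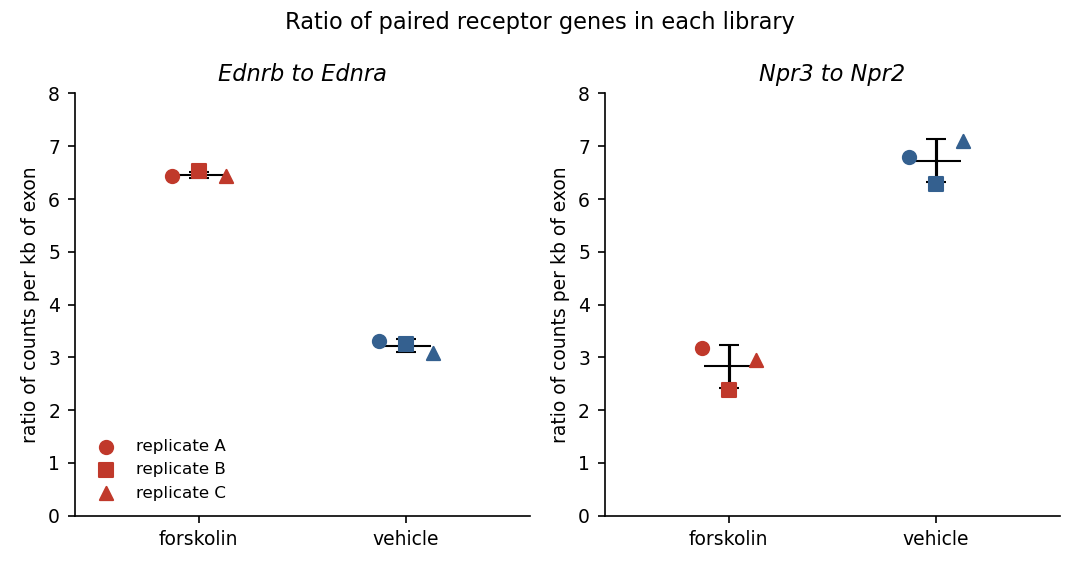
Ratio of counts per kb of exon (vertical axes, starting at 0) of Ednrb to Ednra and of Npr3 to Npr2 in each library, with black bars for the mean ± SD of the 3 ratios. With forskolin the Ednrb ratio sits at 6.43 to 6.53, above 3.08 to 3.32 with vehicle, and the Npr3 ratio sits at 2.38 to 3.18, below 6.29 to 7.10 with vehicle.

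The other endothelin genes were barely counted. Edn2 and Edn3, which encode the remaining endothelins, and Kel, a blood-group protease that cuts endothelin-3, had no counts in any library, which at this depth allows up to 0.201 to 0.273 CPM per library (3 counts). Mme, the gene of neprilysin, which degrades endothelins and natriuretic peptides, had 0 counts over the forskolin libraries and 1 over the vehicle libraries. Ece2 had 28 counts with forskolin and 18 with vehicle, too few to be tested, and 7.09% of its 50-base stretches are found in no other gene, so that its counts are uncertain. All 4 tested genes of the 9 on the endothelin list are therefore members.

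Of the angiotensin genes, the receptor differed and the converting enzyme was near the limit of detection. Agtr1a, the gene of the AT1a receptor of rodents (chromosome 13, 30336356 to 30382867, plus strand, 3 exons), had 185, 203 and 213 CPM with forskolin and 99.2, 106 and 108 CPM with vehicle. The lowest forskolin library was well above the highest vehicle library. The log2 fold change was 0.94 (SE 0.0534, adjusted p = 6.50e-11), a 1.92-fold higher level, which ranked 436 among the increases of all tested genes. Per kb of exon, 93.2% of tested genes were below Agtr1a with forskolin, against 83.1% with vehicle. Its close paralog Agtr1b had 0 counts over the forskolin libraries and 1 over the vehicle libraries, and 98.5% of the 50-base stretches of Agtr1a are found in no other gene.

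Ace, which encodes angiotensin-converting enzyme (chromosome 11, 105967945 to 105989964, plus strand, 25 exons), had 2, 1 and 2 counts in the forskolin libraries and 1, 6 and 6.5 counts in the vehicle libraries. These amount to 0.0756 to 0.182 CPM with forskolin and 0.0738 to 0.472 CPM with vehicle, and the groups overlapped. Ace did not pass the filter on low counts and was not among the tested genes. Over pooled libraries there were 5 counts with forskolin and 13 with vehicle after rounding, a ratio of 0.435 whose exact 95% binomial (Clopper-Pearson) interval of 0.122 to 1.30 covers counting error only. No difference in Ace was detected at this depth, and 173 bases of its exons lie in the antisense gene Gm11651. In the fit without a filter its log2 fold change was -1.14 (edgeR adjusted p = 0.377).

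The angiotensin list held 17 genes, of which 9 were tested. With forskolin 3 were higher and 4 lower, against 24.8% and 25.1% of all tested genes, and 2 did not pass (median log2 fold change 0.04, against 0.01 over all tested genes). Besides Agtr1a, the largest of these differences were in Lnpep, an aminopeptidase that binds angiotensin IV, with 132 CPM with forskolin and 185 CPM with vehicle (log2 fold change -0.48, adjusted p = 1.26e-06), and Agtrap, whose product promotes internalisation of the AT1 receptor, with 89.2 CPM with forskolin and 74.3 CPM with vehicle (0.27, adjusted p = 0.00135). The prolyl peptidase genes Prep and Prcp and the prorenin receptor gene Atp6ap2 were lower by 0.20 to 0.22 on the log2 scale, the call of Prcp being lost without forskolin B, without vehicle B and in the fit that added library size. Thop1, an oligopeptidase gene, was higher by 0.13, a call lost under 9 of 14 alternatives. The precursor gene Agt and the receptor gene Agtr2 had no counts in any library, Ren1 had 4 counts with forskolin and 0 with vehicle, and Mas1 had 2 with forskolin and 4 with vehicle.

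The natriuretic peptide receptors differed in opposite directions. Npr3, the gene of the clearance receptor, which lacks a guanylyl cyclase domain and removes natriuretic peptides (chromosome 15, 11839897 to 11905674, minus strand, 8 exons), had 343, 306 and 321 CPM with forskolin and 648, 659 and 668 CPM with vehicle. The forskolin libraries were all far below the vehicle libraries, whose coefficient of variation was 1.49%. Npr3 fell by 1.03 on the log2 scale (SE 0.0449, adjusted p = 1.63e-12), a level 2.04-fold lower, which ranked 482 among the decreases of all tested genes. Per kb of exon, 83.9% of tested genes had a lower level than Npr3 with forskolin, against 93.8% with vehicle.

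Npr2, the gene of the guanylyl cyclase receptor for C-type natriuretic peptide (chromosome 4, 43631935 to 43651437, plus strand, 22 exons), had 59.8, 71.3 and 60.5 CPM with forskolin and 52.9, 58.0 and 52.1 CPM with vehicle. The groups only just failed to overlap, with forskolin A at 59.8 and vehicle B at 58.0 CPM, and forskolin B stood above the other forskolin libraries. The log2 fold change was 0.23 (SE 0.0711, adjusted p = 0.0105), a level 1.18-fold higher. This was the smallest difference of the 8, and it lost its call without forskolin B (0.14, adjusted p = 0.106), without vehicle A (0.22, adjusted p = 0.0519) and without vehicle C (0.21, adjusted p = 0.0586). Over all 14 alternatives its adjusted p was between 0.00146 and 0.106. An antisense gene, Gm12473, overlaps 59 bases of its exons.

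Npr3 counts per kb of exon were 3.18, 2.38 and 2.94 times those of Npr2 in forskolin libraries A, B and C, and 6.79, 6.29 and 7.10 times in the vehicle libraries. The mean log2 ratio was 1.49 ± 0.217 with forskolin and 2.75 ± 0.0879 with vehicle (SD, n = 3 each), a difference of -1.26, with p = 0.1 in the exact two-sided permutation test, again the smallest possible. The clearance receptor transcript exceeded that of the cyclase receptor in all 6 libraries, by less with forskolin.

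Of 24 natriuretic peptide and cyclic GMP genes listed, 18 were tested. Among them 4 were higher with forskolin and 4 lower, against 24.8% and 25.1% of all tested genes, and 10 did not pass (median log2 fold change -0.02). Of the ligand genes only Nppb, which encodes the B-type peptide, was tested, at 6.52 CPM with forskolin and 7.25 CPM with vehicle (adjusted p = 0.499), while Nppa had 12 counts with forskolin and 14 with vehicle, and Nppc had 3 with forskolin and 0 with vehicle. The A-type receptor gene Npr1 was at 1.86 CPM with forskolin and 2.28 CPM with vehicle (adjusted p = 0.376). The kinases that cyclic GMP activates were split. Prkg1 was at 71.7 CPM with forskolin and 107 CPM with vehicle (log2 fold change -0.58, adjusted p = 1.4e-08), and Prkg2 was at 5.58 CPM with forskolin and 2.75 CPM with vehicle (1.02, adjusted p = 0.00247), a value that was 0.40 and no longer passed when library size was added to the fit (adjusted p = 0.392, and 6.10e-06 to 0.392 over 14 alternatives). Gucy1a2, a subunit gene of the soluble guanylyl cyclase that senses nitric oxide, was at 82.2 CPM with forskolin and 134 CPM with vehicle (-0.71, adjusted p = 5.71e-10). The other subunit genes listed were more abundant and did not pass. Gucy1a1 was at 232 CPM with forskolin and 234 CPM with vehicle (adjusted p = 0.763). Gucy1b1 was at 254 CPM with forskolin and 258 CPM with vehicle (adjusted p = 0.649). The cyclic GMP phosphodiesterase gene Pde5a was higher, at 29.8 CPM with forskolin and 21.3 CPM with vehicle (0.48, adjusted p = 0.000113). The remaining calls were Pde6d, higher by 0.38, and Pde2a, lower by 0.41, both lost in that fit. Only 1.93% of the stretches of Pde2a are found in no other annotated entry. However, a second entry also named Pde2a overlaps its exons on the same strand (largest overlap 1364 bases). The share therefore does not show likeness to other genes.

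F2r, the gene of PAR1, the main thrombin receptor of many mesenchymal cells (chromosome 13, 95601780 to 95618466, minus strand, 2 exons), had 309, 296 and 317 CPM with forskolin and 387, 378 and 393 CPM with vehicle. All forskolin libraries were below all vehicle libraries. F2r fell by 0.33 on the log2 scale (SE 0.0412, adjusted p = 2.85e-06), a level 1.26-fold lower. With 93.6% of tested genes below it per kb of exon with forskolin and 95.8% with vehicle, F2r was an abundant transcript in both groups.

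The thrombin list held 13 genes, of which 8 were tested. Among them 3 were higher with forskolin and 4 lower, against 24.8% and 25.1% of all tested genes, and 1 did not pass (median log2 fold change -0.23). The higher genes include both membrane proteins of the protein C system, which turns thrombin from a clotting to an anticoagulant enzyme. Procr, the gene of the endothelial protein C receptor, was at 425 ± 21.7 CPM with forskolin and 166 ± 6.68 CPM with vehicle (SD, n = 3 each), a log2 fold change of 1.36 (adjusted p = 8.50e-14). Thbd, the gene of thrombomodulin, was at 1453 ± 79.4 CPM with forskolin and 1114 ± 40.7 CPM with vehicle (0.38, adjusted p = 2.36e-06). F3, the gene of tissue factor, which starts the clotting cascade, was lower, at 231 CPM with forskolin and 357 CPM with vehicle (-0.63, adjusted p = 3.72e-09), and so were its inhibitor gene Tfpi (-0.37) and the related gene Tfpi2, at 16.7 CPM with forskolin and 57.6 CPM with vehicle (-1.79, adjusted p = 4.44e-11). The PAR2 gene F2rl1 was at 7.74 CPM with forskolin and 5.89 CPM with vehicle (0.40, adjusted p = 0.0350), a call lost under 6 of 14 alternatives, while F2rl2 and F2rl3 were too low to be tested.

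**Figure D3:**
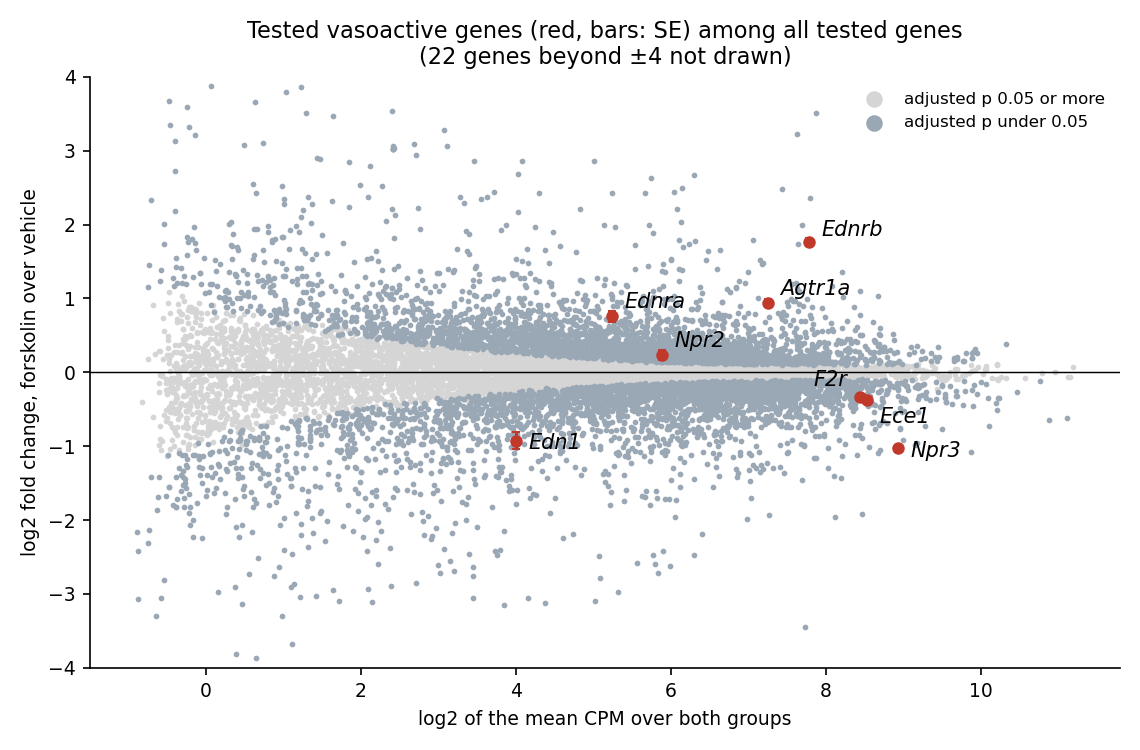
Log2 fold change, forskolin over vehicle (vertical axis), against the log2 of the mean CPM over both groups (horizontal axis) for the tested genes in grey, with the 8 tested members in red and their SE as bars. Ednrb lies at 1.77 and Npr3 at -1.03 among genes of high level, and 22 genes beyond 4 in either direction are not drawn.

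Levels of different genes were compared as CPM per kb of exon. With forskolin the order was F2r (92.2 ± 3.28), Agtr1a (87.8 ± 6.21), Ednrb (85.0 ± 4.39), Ece1 (67.4 ± 0.483), Npr3 (46.8 ± 2.67), Npr2 (16.7 ± 1.69), Ednra (13.1 ± 0.582), Edn1 (5.22 ± 0.585) and Ace (0.0278 ± 0.0113), as mean CPM per kb ± SD (n = 3 each). The libraries of F2r and Agtr1a overlapped, as did those of Agtr1a and Ednrb, while all other neighbours in this order were apart. With vehicle the order was F2r (115.8 ± 2.16), Npr3 (95.2 ± 1.42), Ece1 (87.7 ± 2.93), Agtr1a (45.8 ± 2.0), Ednrb (24.99 ± 1.17), Npr2 (14.2 ± 0.838), Edn1 (9.89 ± 0.562), Ednra (7.78 ± 0.651) and Ace (0.0624 ± 0.0420), and no neighbours overlapped. F2r led in both groups and Ace was last in both. With forskolin the AT1a and ETB receptor transcripts stood above those of Ece1 and the clearance receptor, whereas with vehicle they stood below both, and Ednra and Edn1 also held opposite places.

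**Figure D4:**
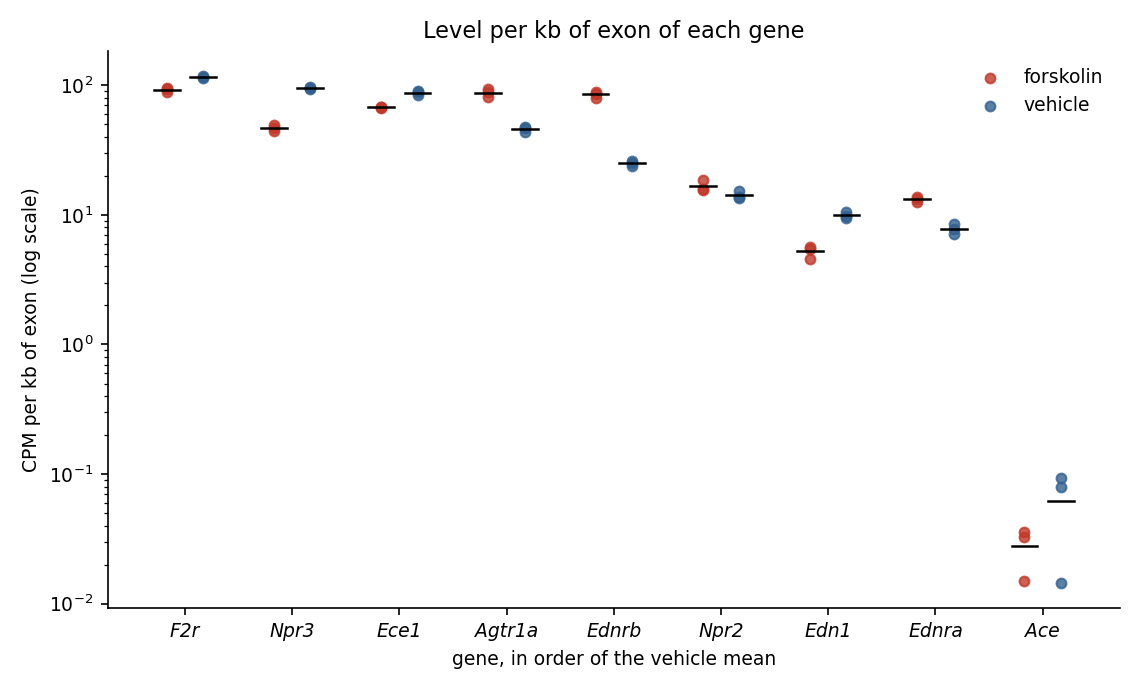
CPM per kb of exon (vertical axis, log scale) of the 9 genes, ordered by their vehicle mean, with forskolin libraries in red at the left of each pair and vehicle libraries in blue. Points are libraries and black lines are means, and Ednrb is at 85.0 with forskolin and 24.99 with vehicle.

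Of 32 other receptors for vasoactive ligands listed, 18 were tested, 1 was higher with forskolin, 10 were lower and 7 did not pass, where 24.8% of all tested genes were higher and 25.1% lower (median log2 fold change -0.35, against 0.01 over all tested genes). The higher gene was Adra2b, an alpha-2 adrenergic receptor gene, at 46.7 ± 10.3 CPM with forskolin and 19.3 ± 2.92 CPM with vehicle (SD, n = 3 each), a log2 fold change of 1.28 (adjusted p = 2.23e-07). Avpr1a, the gene of the vasopressin V1a receptor, which drives smooth muscle contraction, had 12 counts over the forskolin libraries and 292 over the vehicle libraries, or 0.321 CPM with forskolin and 7.09 CPM with vehicle (-4.39, adjusted p = 7.05e-10). The serotonin receptor gene Htr2a was at 75.4 CPM with forskolin and 163 CPM with vehicle (-1.12, adjusted p = 1.03e-10). Low genes such as Avpr1a passed the filter on low counts through the vehicle libraries, where they were higher, so they had to differ, and nothing is read from the list's counts and median.

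The signalling chain from Gq and G12 to myosin had 33 genes listed and 32 tested. Among them 8 were higher with forskolin and 12 lower, against 24.8% and 25.1% of all tested genes, and 12 did not pass (median log2 fold change -0.05). RGS genes, whose proteins switch off G protein alpha subunits, differed in both directions. Rgs2, which acts mainly on Gq, was at 19.4 ± 1.69 CPM with forskolin and 2.69 ± 0.560 CPM with vehicle (SD, n = 3 each), a log2 fold change of 2.85 (adjusted p = 3.39e-11). Rgs4 was lower, at 8.25 CPM with forskolin and 22.5 CPM with vehicle (-1.45, adjusted p = 1.17e-08), and so were Rgs3 (-1.05, adjusted p = 2.08e-06), added after its value was seen, and Rgs16, at 37.9 CPM with forskolin and 67.7 CPM with vehicle (-0.84, adjusted p = 1.48e-07). Beside these counts, 12 markers of vascular smooth muscle, which carries the same receptors, summed to 1361 to 1602 CPM with forskolin and 1726 to 1799 CPM with vehicle. Of 11 tested, 1 was higher and 9 were lower, against 24.8% and 25.1% of all tested genes, and the smooth muscle factor gene Myocd was almost uncounted. The largest parts of the sum were Mylk (434 CPM with forskolin and 493 CPM with vehicle) and Tagln (430 CPM with forskolin and 476 CPM with vehicle). Mylk is also on the list from Gq and G12 to myosin, and Des is also on the stellate cell list. The counts of these lists are therefore not independent. Myh11 was at 42.1 CPM with forskolin and 65.1 CPM with vehicle, and the part of smooth muscle RNA in these differences was not tested.

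**Figure D5:**
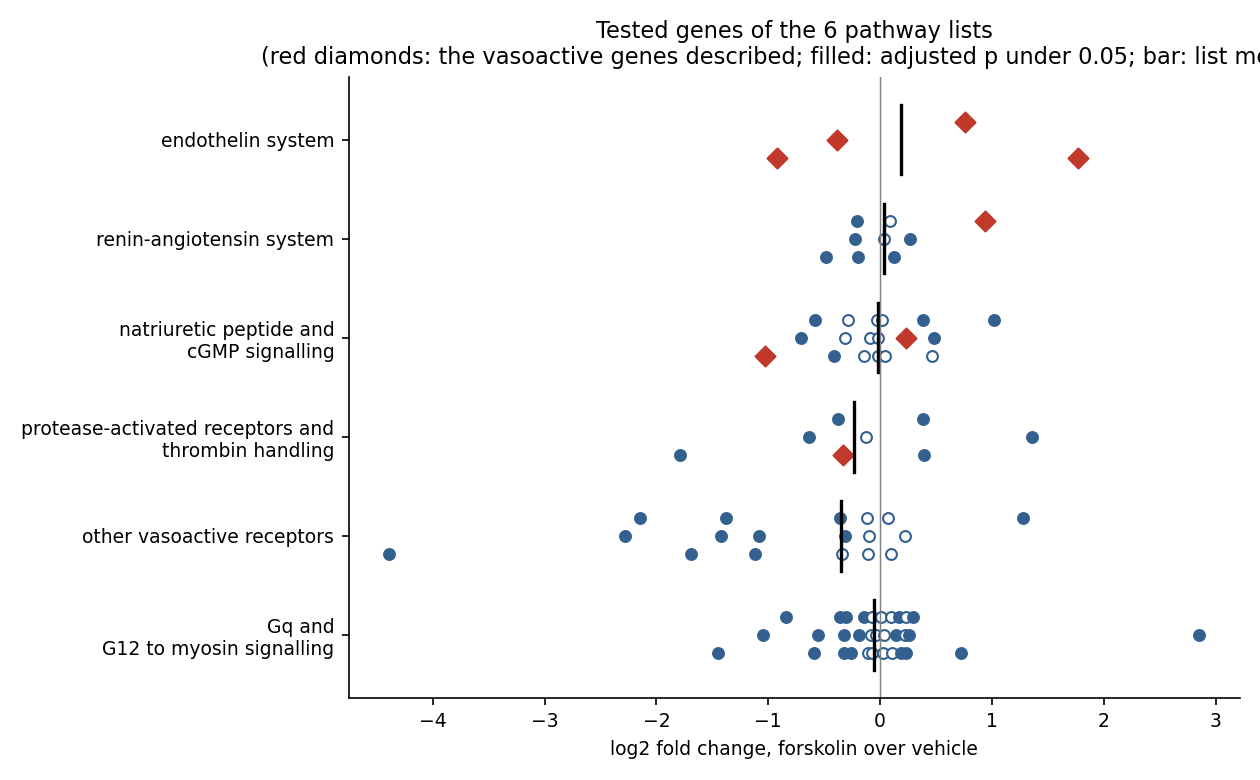
Log2 fold change, forskolin over vehicle (horizontal axis), of each tested gene in the 6 pathway lists (rows). Red diamonds are the vasoactive genes described, blue circles the other genes, filled where the adjusted p was under 0.05, and vertical bars are list medians, from -0.35 for other vasoactive receptors to 0.19 for the endothelin list. The endothelin median rests on 4 genes, all of them members, and nothing is read from the median of the other receptors.

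Genes with a similar pattern were sought for the 5 members that differed at least 1.5-fold, among 10698 other genes with a mean of at least 5 CPM. Likeness was the root mean square difference, over the 6 libraries, of log2 CPM centred on each gene's mean, and a small value largely means a similar fold change. The nearest to Ednrb were Il33, a cytokine gene (0.0681), and Pde4b, a cyclic AMP phosphodiesterase gene (0.0731), with log2 fold changes of 1.70 and 1.80. The nearest to Agtr1a were Rspo3, which encodes an enhancer of Wnt signalling (0.0178), and Lta4h, a leukotriene hydrolase gene (0.0401), at 0.95 and 0.89. Rspo3 had 240 ± 16.8 CPM with forskolin and 124 ± 3.85 CPM with vehicle, beside 200 ± 14.2 CPM with forskolin and 104 ± 4.55 CPM with vehicle for Agtr1a (SD, n = 3 each). For Ednra they were Atat1, a tubulin acetyltransferase gene (0.0434), and Edem2, a gene of protein quality control (0.0465). For Npr3 they were the carboxypeptidase gene Cpd (0.0251), with 382 CPM with forskolin and 755 CPM with vehicle, and Pop1, a ribonuclease P subunit gene (0.0312). For Edn1 they were Cyp4f17 (0.0451) and Ablim1, an actin-binding protein gene (0.0578).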

How the data were processed

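The authors deposited a single table of unnormalized estimated counts per gene over exons, with 1 RefSeq transcript per symbol and its exon length. STAR, HOMER and mm10 are named in the submitters' processing notes; their versions and settings, and whether strand was used, are not given there. All values of the deposited table are multiples of 0.5, and 31.8% are not whole, so these expected counts were rounded before testing.

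In edgeR 4.0.16 (R 4.3.3), filterByExpr (minimum count 10, minimum total 15) kept 13357 genes, TMM factors scaled the libraries, and glmQLFit and glmQLFTest compared forskolin with vehicle in a model of group alone. Benjamini-Hochberg adjustment ran over all tested genes (threshold 0.05). The procedure was also run on simulated data in which only a small part of the genes differed. In the real data 49.9% of tested genes passed, so that setting cannot check the scaling or the number of calls here. CPM are counts over the TMM-scaled library size. SE was the log2 fold change divided by the root of the F statistic. Receptor ratios used exact permutation tests. DESeq2 1.42.0 was an alternative.

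Exon numbers, unique 50-base stretches and overlaps came from GENCODE M21 (GRCm38). Members, the 6 pathway lists and 6 marker lists were chosen with earlier results of these data known. Named were all members, up to 4 other genes per list (smallest adjusted p, at least 1.5-fold, mean of at least 1 CPM), ligands, receptors and enzymes of the 4 hormone and thrombin systems, marker genes, and the 2 most similar genes of each member past 1.5-fold. Symbols were matched directly or through aliases, and Irag1 had no match. Some listed genes are not reported here by name.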

Additional observations from a re-analysis of the deposited data

How the results depend on the processing

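The gene tests were repeated under 14 alternatives: library size alone, upper-quartile factors, DESeq2, no filter, a strict filter (at least 1 CPM in all libraries of a group), unrounded counts, library size as a covariate, the replicate block, and leaving out each of the 6 libraries. Of 112 member values, 109 kept their direction and side of the threshold, and the 3 others were those of Npr2 without forskolin B, vehicle A or vehicle C, so 7 or 8 members passed under every alternative. The log2 fold change of Ednrb was between 1.73 and 1.84, that of Agtr1a between 0.90 and 1.01, that of Ednra between 0.70 and 0.82, that of Npr3 between -1.11 and -0.98 and that of Edn1 between -0.99 and -0.82. Of 532 values of 38 other genes, 510 kept direction and side, and Nppb, which did not pass, changed sign without vehicle A (leaving out 1 library gave -0.31 to 0.00152). With library size as a covariate 4297 genes passed, 1998 of them higher, against 6668 and 3319 without it, and 4138 of the calls were shared. Total counts were at most 12954310 in forskolin libraries and at least 13001358 in vehicle libraries, so library size went with treatment. That fit therefore cannot fully separate the 2, and calls lost in it are not read as effects of library size. The cause of the lower number of calls was not tested. With the replicate block 6675 genes and 8 members passed, and it ended no member's call but did end that of Thop1 (adjusted p = 0.0596, and 0.0105 to 0.311 over all alternatives). Libraries of the same letter correlated in their deviations from group means by 0.0203 to 0.0377, and those of different letters by -0.0482 to 0.0201. Forskolin B was about as close to vehicle A (0.0201) as to vehicle B (0.0203). These small values do not show whether the letters mark pairs. Under 8 alternatives the differences in log2 ratio stayed between 0.98 and 1.03 for Ednrb to Ednra and between -1.35 and -1.14 for Npr3 to Npr2, where no p-value could pass. Depth limits statements on Ace and on the ligand genes.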
